A study of Homo sapiens with 5 samples.

Results

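Mesenchymal and contractile genes that the Ewing sarcoma fusion protein EWSR1-FLI1 is reported to oppose were followed in MHH-ES-1 cells given miR-483 mimics. The group holds 36 genes, chosen by name, of the 19775 genes with a probe set of their own on the array. All 36 had at least 1 such probe set and together they had 112. By role, 10 members encode secreted proteins, 12 cytoskeletal proteins, 5 transcription factors, 5 cell surface proteins and 4 other intracellular proteins. Each gene is given by its brightest probe set unless another is named. A total of 34 members passed a filter on low signal (a mean above 27.2, the 40th percentile of probe sets), and POSTN and CNN1 did not.

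MHH-ES-1 is an established human Ewing sarcoma cell line. Cells were transfected with 50 nM of a microRNA mimic, a synthetic duplex that supplies a chosen microRNA, and total RNA was taken 48 h later. The groups were miR-483-5p (2 arrays), miR-483-3p (1 array) and a scrambled control mimic (2 arrays), so every array comes from transfected cells of 1 line. miR-483-5p and miR-483-3p are the 2 arms of 1 hairpin. In both pairs the second array is labelled as a repeat, with nothing said of separate cultures. Differences between arrays of 1 group may therefore be technical, p-values measure that spread only, and the single miR-483-3p array is assumed to vary like the pairs.

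EWSR1-FLI1 joins part of the RNA-binding protein EWSR1 to the DNA-binding domain of the transcription factor FLI1. In Ewing sarcoma cells it activates genes at GGAA repeats and also holds down genes of the mesenchymal lineage, among them the TGF-beta receptor gene TGFBR2, the forkhead gene FOXO1 and the matrix enzyme gene LOX. Cells with less of the fusion are known to gain stress fibres, focal adhesions and matrix proteins. Many contractile genes are also driven by SRF and its MRTF partners through CArG boxes, and by TGF-beta signalling. The mimics were not compared with a change in the fusion here, so opposition by EWSR1-FLI1 is background and not a measurement.

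Each array had a similar median signal, 39.2 and 44.9 for miR-483-5p, 41.9 for miR-483-3p and 44.4 and 43.2 for the control. The GAPDH 3' to 5' ratio, a sign of RNA integrity, was 1.09 and 1.10 for miR-483-5p, 1.06 for miR-483-3p and 1.02 and 0.996 for the control, and its part in the differences was not tested. Of 10 listed Ewing sarcoma markers 9 had a probe set, and their summed signal was 22326 and 20744 for miR-483-5p, 20124 for miR-483-3p and 20961 and 21571 for the control. Over the 5 arrays, CD99 lay at 4381 to 5093 and the transcription factor NKX2-2 at 2444 to 2920. None of the 9 passed limma's test, and at an unadjusted p under 0.05 CCND1, cyclin D1, was higher for miR-483-5p (log2 difference 0.40, adjusted p = 0.409), LIPI was lower for miR-483-5p (-0.52, adjusted p = 0.344), and FCGRT, the neonatal Fc receptor, was lower for miR-483-5p (-0.41, adjusted p = 0.409) and for miR-483-3p (-0.51, adjusted p = 0.679). EWSR1 differed by 0.34 (adjusted p = 0.493) for miR-483-5p and 0.23 (adjusted p = 0.905) for miR-483-3p. A second CCND1 probe set gave 0.082 for miR-483-5p, with 1954.0 and 2777.1 against 2168.3 and 2232.2 on the control arrays. A second EWSR1 probe set gave 0.54 for miR-483-5p and 0.39 for miR-483-3p. Whether the EWSR1 probe sets read the fusion transcript was not tested. Of all genes tested, 5.3% were higher and 5.41% lower for miR-483-5p at limma's unadjusted p under 0.05. For miR-483-3p these shares were 2.51% and 4.05%. The part of these markers in the members' differences was not tested. NR0B1 was not analysed here. The 7 fibroblast markers summed to 3760 and 3685 for miR-483-5p, 2998 for miR-483-3p and 3949 and 3858 for the control, with COL1A1 at 1567 to 2299 and PDGFRA at 3.3 to 39.4. The 6 smooth muscle markers summed to 427 and 429.1 for miR-483-5p, 369.7 for miR-483-3p and 361.1 and 309.7 for the control. Within that sum, SMTN had 202.2 and 208.5 for miR-483-5p, 156.3 for miR-483-3p and 114.2 and 130.1 for the control. DES also lay above both controls on every mimic array. LMOD1 (3.8 to 9.6), MYH11 (29.1 to 53.3), MYOCD and ACTG2 overlapped between miR-483-5p and control. CNN1, the smooth muscle calponin among the members, lay at 1.8 to 5.4, and VIM, vimentin, the intermediate filament protein of mesenchymal cells, at 4745 to 5709. In bulk RNA, fewer cells of a type and less RNA in each cell cannot be told apart.

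Promoter windows of 300 bases (250 before and 50 after a gene start, from RefSeq, build GRCh38.p14) were available for 29 members in 44 windows, including 10 of the 12 cytoskeletal genes. They were searched on both strands for the CArG box and for a doubled GGAA, written GGAAGGAA. A CArG box was in 2 of the 44 member windows, against 1.29% of all 35116 windows, and so in 2 of the 29 members, both cytoskeletal, against 1.60% of all 27305 genes with a window. GGAAGGAA was in 1 of the 44 member windows, that of TNC, on the strand opposite to the gene, against 3.67% of all windows and 4.50% of all genes with a window. A match describes the letters only, and the windows without one say nothing about the factor. The 3 stretches are shown because they are the members' matches to the elements named above. Capitals mark the motif, each line runs 5′ to 3′ along the gene, and the positions are chr14:68977718-68977747 (minus strand) for ACTN1, chr19:1026509-1026538 (plus strand) for CNN2 and chr9:115118318-115118345 (minus strand) for TNC.
ACTN1, CArG box: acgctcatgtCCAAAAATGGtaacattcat
CNN2, CArG box: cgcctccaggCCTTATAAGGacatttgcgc
TNC, GGAAGGAA read on the opposite strand: tgcaaatgggTTCCTTCCctggccgaga

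No member passed the test in any comparison. With limma's adjusted p under 0.05, 0 of 34 members tested were called for miR-483-5p against control, for miR-483-3p against control and between the arms, against a background of 0% of the 14591 genes tested in each. At an unadjusted p under 0.05, 1 member was higher (VCL) and 2 were lower (TGFBI and S100A6) for miR-483-5p against control, against a background of 10.7% of genes, 5.3% higher and 5.41% lower. For miR-483-3p against control, 0 members were higher and 3 were lower (DKK1, ITGA5 and PHLDA1), against a background of 6.56% of genes, 2.51% higher and 4.05% lower. The values that follow describe these arrays, and both mimic comparisons share the same 2 control arrays. Differences are in log2(signal + 32), which understates those of dim genes, and each SE and adjusted p is limma's.

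**Figure D1:**
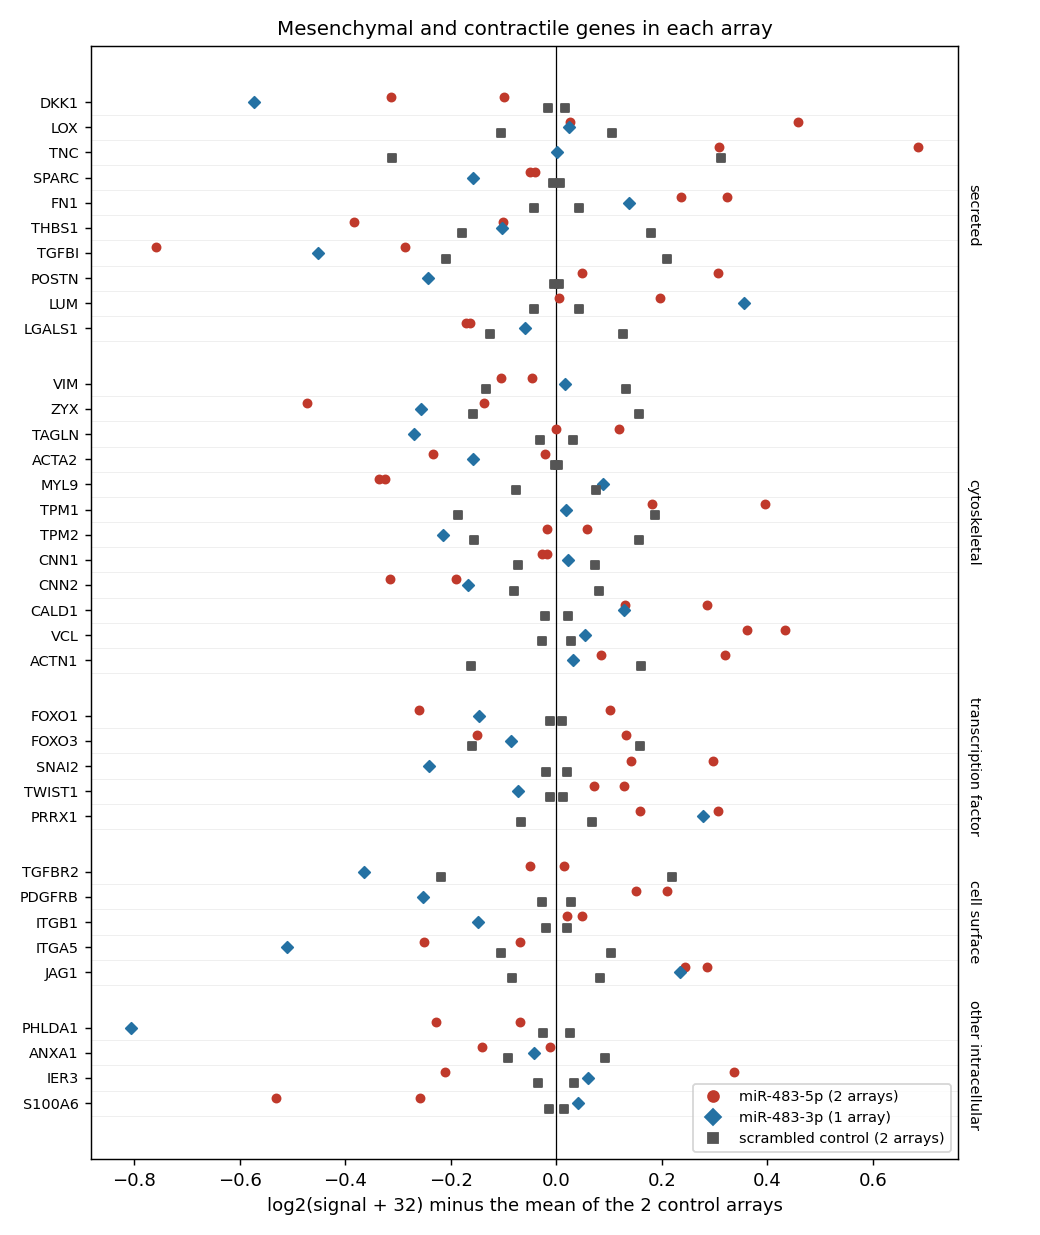
Each row is 1 gene and each point 1 array, plotted as log2(signal + 32) minus the mean of the 2 control arrays, for miR-483-5p (circles), miR-483-3p (diamonds) and the scrambled control (squares). The miR-483-3p array of PHLDA1 lies farthest to the left, at -0.81, and both miR-483-5p arrays of VCL lie to the right of its control arrays.

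Secreted members lay on both sides of the control, 5 higher and 5 lower for miR-483-5p and 4 higher and 6 lower for miR-483-3p. DKK1, an inhibitor of Wnt signalling, had signals of 71.0 and 87.4 on the miR-483-5p arrays, 54.0 on the miR-483-3p array and 97.4 and 94.5 on the control arrays. All mimic arrays lay below both controls, and the miR-483-3p array was the lowest. The log2 difference was -0.21 (SE 0.15, limma adjusted p = 0.659) for miR-483-5p and -0.57 (SE 0.18, adjusted p = 0.662) for miR-483-3p. TGFBI, an adhesive matrix protein named for its induction by TGF-beta, had 31.5 and 13.8 on the miR-483-5p arrays, 24.6 on the miR-483-3p array and 35.0 and 57.5 on the control arrays. It too lay below both controls on every mimic array, but the mimic means, 22.7 for miR-483-5p, were under the filter's 27.2. Its log2 differences were -0.52 (SE 0.22, adjusted p = 0.461) and -0.45 (SE 0.27, adjusted p = 0.878). Leaving out 1 array at a time moved the miR-483-5p value to between -0.76 (without the first miR-483-5p array) and -0.29 (without the second), to -0.73 without the first control array and to -0.31 without the second.

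TNC is the matrix glycoprotein tenascin C, and its window holds the GGAAGGAA match printed above, a match of letters only. TNC had 292.8 and 218.1 on the miR-483-5p arrays, 170.0 on the miR-483-3p array and 218.5 and 130.7 on the control arrays. The groups overlapped, and the gap between the 2 control arrays, 0.62 on the log2 scale, was larger than the miR-483-5p difference of 0.50 (SE 0.24, adjusted p = 0.516). FN1, fibronectin, the glycoprotein ligand of several integrins, had 6891.2 and 6489.9 on the miR-483-5p arrays, 6057.0 on the miR-483-3p array and 5340.8 and 5667.5 on the control arrays. All mimic arrays exceeded both controls, by 0.28 (SE 0.14, adjusted p = 0.534) for miR-483-5p and 0.14 for miR-483-3p. LUM, a small proteoglycan that organises collagen fibrils, had 36.4 and 27.9 on the miR-483-5p arrays, 44.4 on the miR-483-3p array and 29.5 and 26 on the control arrays. The miR-483-3p array lay above the other 4, at 0.36 from the control (SE 0.18, adjusted p = 0.831), and the miR-483-5p arrays overlapped the controls. Over all 5 arrays, SPARC, a collagen-binding matrix protein, ranged over 3782.5 to 4245.1 and lay below both controls on every mimic array. The SPARC differences were -0.045 for miR-483-5p and -0.16 for miR-483-3p, and a second probe set gave 0.046 and 0.10. The galectin LGALS1 ranged over 5104.3 to 6276.7, thrombospondin THBS1 over 63.0 to 108.3, LOX, which crosslinks collagen, over 36.6 to 69.4, and the matricellular POSTN over 9.3 to 28.4.

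Cytoskeletal members split evenly for miR-483-5p, with 6 of 12 higher and 6 lower, and 7 were higher for miR-483-3p. VCL, vinculin, which links integrin adhesions to actin, had 1282.9 and 1351.7 on the miR-483-5p arrays, 1030.9 on the miR-483-3p array and 1012.3 and 972.5 on the control arrays. The miR-483-5p arrays stood apart from all others, at a log2 difference of 0.40 (SE 0.14, adjusted p = 0.409) against 0.053 for miR-483-3p. Averaged with a second VCL probe set, which alone gave -0.57, the difference was -0.086. The second probe set had 18.7 and 50.8 on the miR-483-5p arrays, 47.0 on the miR-483-3p array and 55.7 and 73.5 on the control arrays. MYL9, the regulatory light chain of myosin, had 37.2 and 36.6 on the miR-483-5p arrays, 60.1 on the miR-483-3p array and 59.3 and 50.2 on the control arrays. It lay below the control on both miR-483-5p arrays, at -0.33 (SE 0.14, adjusted p = 0.473), and slightly above it on the miR-483-3p array, by 0.088. These values rest on 1 probe set, since a second MYL9 probe set lay under the filter, at 2.6 to 5.3 over the 5 arrays. ZYX, zyxin, a focal adhesion protein reported to be low in Ewing sarcoma cells, had 528.2 and 411.7 on the miR-483-5p arrays, 483.8 on the miR-483-3p array and 520.3 and 654.7 on the control arrays. The groups overlapped for miR-483-5p, at a difference of -0.30 (SE 0.18, adjusted p = 0.601), and for miR-483-3p it was -0.26.

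TPM1, the alpha tropomyosin that coats actin filaments, had 426.1 and 499.3 on the miR-483-5p arrays, 377.4 on the miR-483-3p array and 323.1 and 428.0 on the control arrays, a difference of 0.29 (SE 0.18, adjusted p = 0.614) between overlapping groups. TAGLN, the actin-bundling protein transgelin, had 182.0 and 200.3 on the miR-483-5p arrays, 145.5 on the miR-483-3p array and 177.4 and 186.8 on the control arrays. The miR-483-3p array lay below all 4 others, at -0.27 against the control (SE 0.17, adjusted p = 0.887). Of the remaining cytoskeletal genes, ACTN1, which crosslinks actin, and the calponin CNN2, the members with a CArG box in their windows, ranged over 1453.6 to 2040.6 and 1062.4 to 1407.4. CNN2 lay below both controls on all 3 mimic arrays and the miR-483-5p and control arrays of ACTN1 overlapped. The caldesmon gene CALD1 (1265.2 to 1573.5) lay above both controls on all 3 mimic arrays, and ACTA2, smooth muscle actin (728.6 to 863.9) lay below them. A dimmer ACTA2 probe set went the other way, by 0.40 for miR-483-5p and 0.16 for miR-483-3p. Its control signals were 45.2 and 17.5. VIM and TPM2, the beta tropomyosin (1377.0 to 1790.2) overlapped between miR-483-5p and control.

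**Figure D2:**
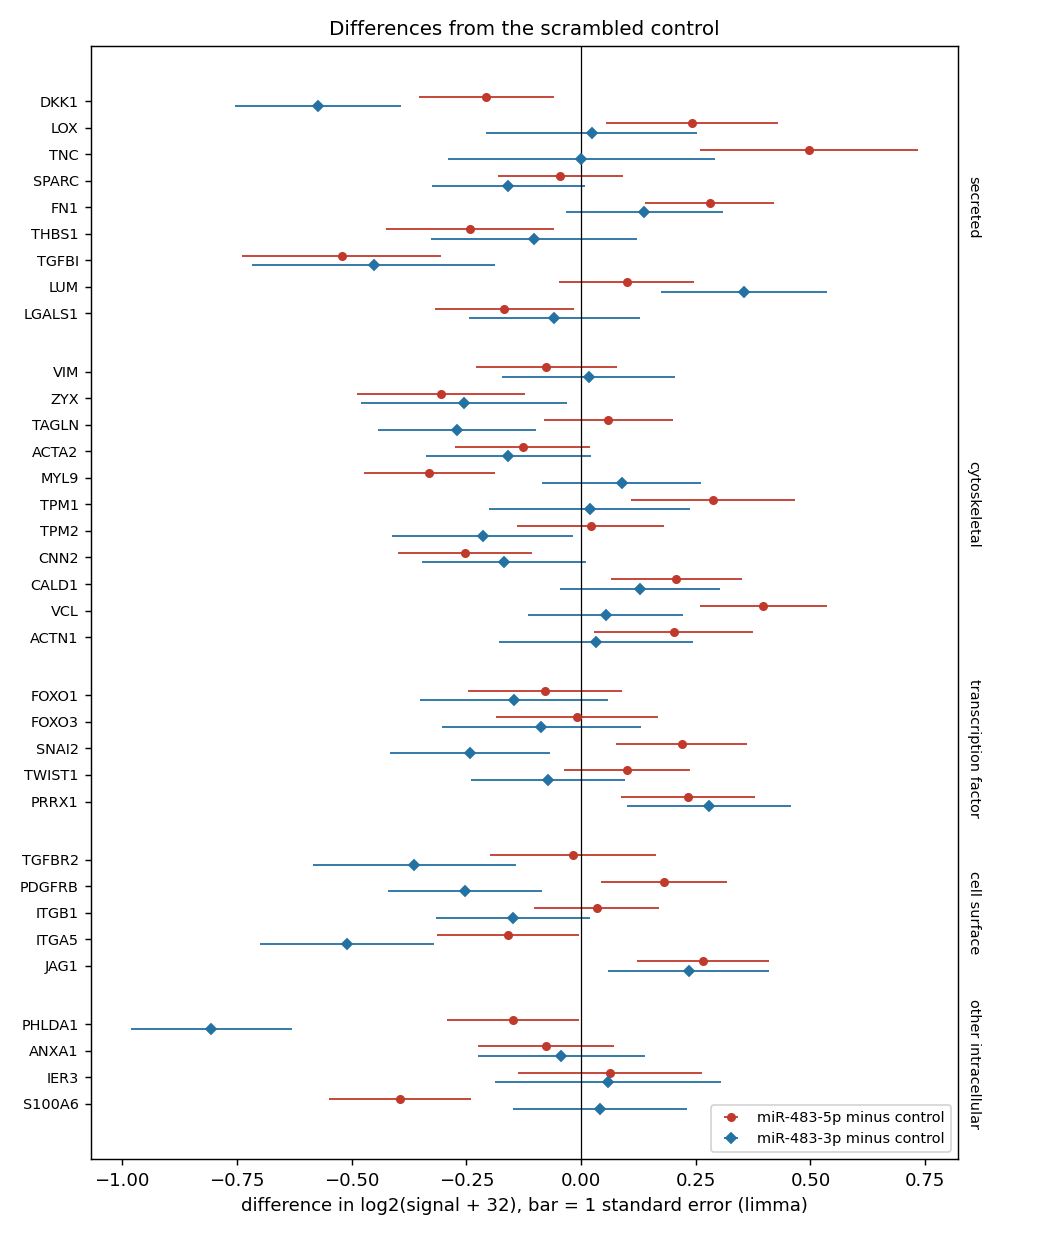
Differences in log2(signal + 32) from the scrambled control for the 34 members tested, by class, with miR-483-5p as circles, miR-483-3p as diamonds and 1 limma standard error as bars. VCL at 0.40 and TNC at 0.50 lie farthest right for miR-483-5p, and PHLDA1 at -0.81 lies farthest left for miR-483-3p.

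By their brightest probe sets, transcription factor members differed from the control by at most 0.28 in either comparison. SNAI2, the repressor Slug that acts in epithelial to mesenchymal transition, had 112.7 and 97.9 on the miR-483-5p arrays, 67.6 on the miR-483-3p array and 87.4 and 84.1 on the control arrays. The miR-483-5p arrays lay above both controls and the miR-483-3p array below them, at log2 differences of 0.22 (SE 0.14, adjusted p = 0.629) and -0.24 (SE 0.17, adjusted p = 0.904). PRRX1, a homeobox gene of limb and craniofacial mesenchyme, had 68.1 and 78.9 on the miR-483-5p arrays, 76.7 on the miR-483-3p array and 53.6 and 61.9 on the control arrays. All mimic arrays lay above the controls, by 0.23 (SE 0.15, adjusted p = 0.617) and 0.28 (SE 0.18, adjusted p = 0.887), and a second probe set of PRRX1 gave 0.78 and 0.19. That second probe set had 12.5 and 45.3 on the control arrays, a gap of 0.80 on the log2 scale that exceeded both differences. FOXO1 had 79.4 and 111.1 on the miR-483-5p arrays, 88.5 on the miR-483-3p array and 102.4 and 100.3 on the control arrays. Its miR-483-5p arrays straddled the controls, at -0.079 (SE 0.17, adjusted p = 0.897). TWIST1, a bHLH factor of mesoderm, ranged over 959.7 to 1108, and the forkhead gene FOXO3 over 303.2 to 386.1.

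Of the 5 cell surface members, 4 lay below both controls on the miR-483-3p array, where 35.4% of all genes tested did. ITGA5, the integrin alpha subunit of the fibronectin receptor, had 414.8 and 362.3 on the miR-483-5p arrays, 297.2 on the miR-483-3p array and 472.0 and 404.2 on the control arrays. The miR-483-3p array was the lowest of the 5, at -0.51 (SE 0.19, adjusted p = 0.720), and the miR-483-5p arrays overlapped the controls. TGFBR2, which binds TGF-beta and starts its signal, had 125.6 and 132.9 on the miR-483-5p arrays, 94.8 on the miR-483-3p array and 157.9 and 108.2 on the control arrays. The 2 controls differed by 0.44 on the log2 scale, more than the miR-483-3p difference of -0.36 (SE 0.22, adjusted p = 0.883), and the miR-483-5p difference was -0.017. JAG1, a Notch ligand, had 274.1 and 283.0 on the miR-483-5p arrays, 272.0 on the miR-483-3p array and 211.9 and 241.7 on the control arrays. It lay above the controls on every mimic array, by 0.27 (SE 0.14, adjusted p = 0.559) and 0.23 (SE 0.18, adjusted p = 0.905). PDGFRB, a receptor for platelet-derived growth factor, ranged over 111.3 to 165.6 and ITGB1, the common integrin beta subunit, over 3021.5 to 3468.4, and in both the miR-483-3p array was the lowest. Of the fibroblast markers, 6 of 7 were also lower on the miR-483-3p array than the control mean, where 50.9% of all genes were. Their median difference was -0.28, against -0.0050 over all genes. PDGFRA, 1 of the 6, lay under the filter, and the dimmer probe sets of DCN ran from -0.73 to 0.26. The part of these markers in the cell surface values was not tested.

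Among the other intracellular members, PHLDA1 had the lowest p of the group. PHLDA1, a pleckstrin homology-like protein, had 125.6 and 144.0 on the miR-483-5p arrays, 73.6 on the miR-483-3p array and 155.9 and 149.4 on the control arrays. The miR-483-3p array lay apart from the other 4, at -0.81 (SE 0.18, unadjusted p = 0.00253, adjusted p = 0.485), while its 4 other tested probe sets gave 0.14 to 0.29 and the mean over its probe sets gave 0.012. S100A6, a calcium-binding protein, had 124.2 and 97.2 on the miR-483-5p arrays, 160.1 on the miR-483-3p array and 156.6 and 152.8 on the control arrays. Both miR-483-5p arrays lay below all others, at -0.39 (SE 0.15, adjusted p = 0.436). ANXA1, a phospholipid-binding annexin, had 3611.3 and 3954.9 on the miR-483-5p arrays, 3868.8 on the miR-483-3p array and 3739.3 and 4251.4 on the control arrays, with overlapping groups. IER3, an early response gene, ranged over 116.8 to 185.4, both extremes being miR-483-5p arrays.

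Class medians for miR-483-5p ran from -0.11 in the other intracellular genes to 0.10 in the transcription factor genes. Over all members of a class, with no filter, the median log2 difference was 0.027 for secreted, -0.0010 for cytoskeletal, 0.10 for transcription factor and -0.11 for other intracellular genes, against -0.014 over all 19775 genes. The secreted and the cytoskeletal median each took the opposite sign under 4 of 13 alternatives, and the transcription factor and the other intracellular median under 0. For miR-483-3p against control the medians were -0.081 for secreted, 0.018 for cytoskeletal, -0.086 for transcription factor and -0.00096 for other intracellular genes, against -0.0050 over all genes. The cytoskeletal value took the opposite sign under 5 of 13 alternatives and the other intracellular value under 3. Of the members, 4 of 10 secreted, 7 of 12 cytoskeletal, 1 of 5 transcription factor and 2 of 4 other intracellular genes were higher for miR-483-3p, against 49.1% of all genes. No difference between classes was tested. The cell surface median was 0.034 for miR-483-5p and -0.25 for miR-483-3p, and the miR-483-3p value was -0.0079 when the probe sets of a gene were averaged. The SD of a class median between repeats, taken over both pairs, was 0.0072 for secreted, 0.057 for cytoskeletal, 0.031 for transcription factor, 0.025 for cell surface and 0.041 for other intracellular genes. For miR-483-5p the cytoskeletal median was smaller in size than its SD and the other 4 were larger. For miR-483-3p the cytoskeletal and other intracellular medians were smaller in size than their SDs and the other 3 were larger. Each SD rests on only 2 pairs of repeats, and the miR-483-3p array has no repeat. A median larger than its SD is therefore not a test of a difference.

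The arrays of miR-483-5p and control did not overlap in 8 members that were higher and 9 that were lower, against a background of 42.5% of genes, 20.3% higher and 22.2% lower. The miR-483-3p array lay above both controls in 9 members and below them in 16, against a background of 68.8% of genes, 33.4% above and 35.4% below. For miR-483-5p the difference exceeded the gap between repeats in both groups for 13 of 34 members, or 38.2%, against 30.0% of all genes tested. VCL stood farthest above its gap, while TNC, IER3 and TGFBR2 had gaps of 0.62, 0.55 and 0.44 that exceeded their differences.

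**Figure D3:**
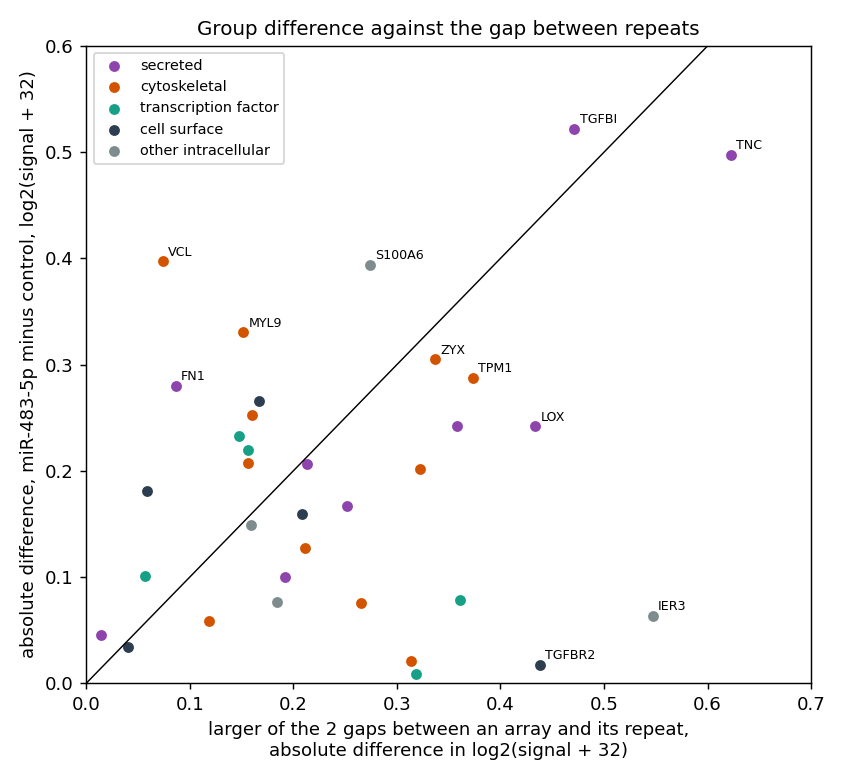
Each point is 1 of the 34 members tested, coloured by class, with the absolute difference between miR-483-5p and control (vertical) against the larger gap between an array and its repeat (horizontal), both in log2(signal + 32). The line marks equality, 13 points lie above it, and VCL (0.40), S100A6 (0.39), MYL9 (0.33) and FN1 (0.28) are among them.

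Probe sets of 1 gene often disagreed. Among the 19 members with at least 2 probe sets above the filter, all of a gene's probe sets had 1 sign in 7 for miR-483-5p (LOX, TNC, ZYX, TPM2, FOXO3, PRRX1 and JAG1) and in 6 for miR-483-3p (the same without TPM2). JAG1 had 4 probe sets at 0.21 to 0.43 for miR-483-5p and at 0.065 to 0.46 for miR-483-3p. FN1 had 4 bright probe sets between 0.25 and 0.29 for miR-483-5p, while another gave -0.78. That value came from 1 array, since this probe set had 195.4 and 1086.0 on the miR-483-5p arrays, 954.8 on the miR-483-3p array and 811.2 and 859.1 on the control arrays. CALD1, caldesmon, had 8 tested probe sets that ran from -0.46 to 0.44, with 4 on each side. With each of 32768 probe sets fitted on its own, 0 of the 78 member probe sets tested passed limma's test in any comparison.

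**Figure D4:**
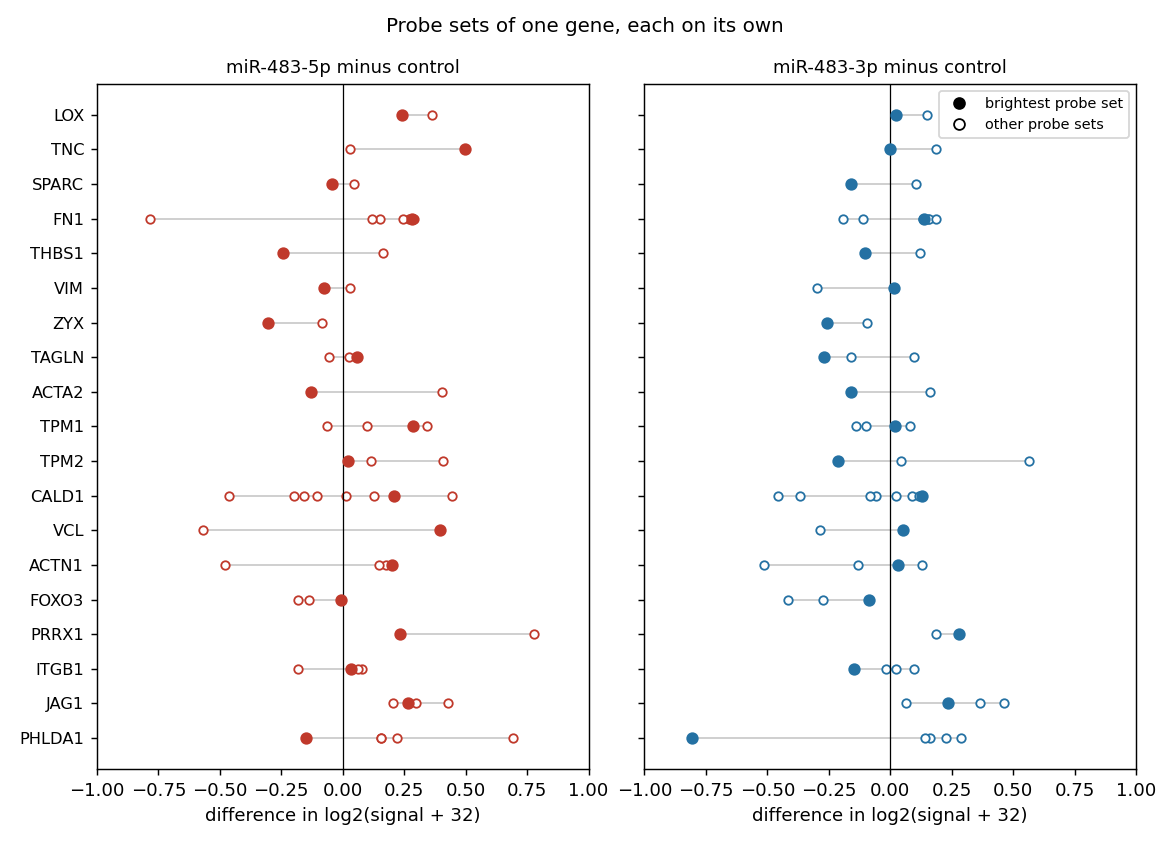
Each row is 1 of the 19 members with at least 2 tested probe sets, and each point 1 probe set, as the difference in log2(signal + 32) of miR-483-5p (left panel) or miR-483-3p (right panel) from the control. Filled points are the brightest probe set of a gene; the filled PHLDA1 point in the right panel lies at -0.81 and its open points at 0.14 to 0.29.

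Set against each other directly, miR-483-5p lay above miR-483-3p in 24 of 36 members, where 49.7% of all genes did. Both miR-483-5p arrays lay above the miR-483-3p array in 19 of the 34 tested and below it in 6, against a background of 67.9% of genes, 34.4% above and 33.5% below. All 5 cell surface genes were among the 19, and their median difference was 0.35, against -0.0017 over all genes, and was 0.0019 when probe sets were averaged. At an unadjusted p under 0.05, PHLDA1 (0.66, SE 0.18, adjusted p = 0.600), SNAI2 (0.46, SE 0.17, adjusted p = 0.706) and PDGFRB (0.43, SE 0.17, adjusted p = 0.716) were higher and MYL9 (-0.42, SE 0.17, adjusted p = 0.746) was lower for miR-483-5p, against a background of 6.65% of genes, 3.41% higher and 3.24% lower. The other tested probe sets of PHLDA1 gave -0.13 to 0.53 between the arms, and its lowest value over the alternatives was 0.17. With 1 miR-483-3p array, the arm and that array cannot be told apart.

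Among other genes of the TGF-beta pathway, the receptor gene TGFBR1 stood out on the miR-483-5p arrays. Of 20 listed genes 19 were tested and 0 passed limma's test in any comparison. The list was chosen with earlier results of these data known, so its counts are a description only. At an unadjusted p under 0.05, 4 genes were higher and 1 lower for miR-483-5p, where 5.3% of all genes were higher and 5.41% lower. For miR-483-3p, 0 were higher and 1 lower, where 2.51% and 4.05% of all genes were. TGFBR1, the signalling partner of TGFBR2, had 411.5 and 342.2 on the miR-483-5p arrays, 208.6 on the miR-483-3p array and 187.0 and 202.7 on the control arrays. Both miR-483-5p arrays lay far above the other 3, at a log2 difference of 0.85 (SE 0.15, unadjusted p = 0.000911, adjusted p = 0.300) from the control and 0.76 (SE 0.19, adjusted p = 0.589) from miR-483-3p. Its dimmer probe sets gave 0.75 and 0.28 against the control. Over the alternatives its adjusted p against the control ran from 0.0356 to 0.521, and passed the threshold with a variance prior that follows intensity (0.0356) and with a pseudocount of 100 (0.0445). The ligand gene TGFB2 had 212.6 and 207.0 on the miR-483-5p arrays, 155.4 on the miR-483-3p array and 121.6 and 141.9 on the control arrays, a difference of 0.56 (SE 0.14, adjusted p = 0.337), with 1 of its 4 other probe sets at -0.44.

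ENG, the co-receptor endoglin, was lower with both mimics. It had 179.2 and 157.4 on the miR-483-5p arrays, 150.3 on the miR-483-3p array and 238.4 and 237.8 on the control arrays, at differences of -0.43 (SE 0.14, adjusted p = 0.399) and -0.57 (SE 0.17, adjusted p = 0.644). A second ENG probe set gave -0.70 and -0.42. With miR-483-3p the next lowest p-values were those of SMAD3 and PMEPA1. The mediator SMAD3 had 299.8 and 261.3 on the miR-483-5p arrays, 357.3 on the miR-483-3p array and 268.3 and 262.9 on the control arrays. The miR-483-3p array was the highest of the 5, at 0.39 from the control (adjusted p = 0.806), with -0.59 in another probe set. PMEPA1, which restrains TGF-beta signalling, had 52.9 and 55.5 on the miR-483-5p arrays, 52.3 on the miR-483-3p array and 35.9 and 33.7 on the control arrays. All mimic arrays lay above both controls, by 0.37 (adjusted p = 0.423) for miR-483-5p and 0.34 (adjusted p = 0.831) for miR-483-3p. The co-receptor gene TGFBR3 had 138.3 and 96.9 on the miR-483-5p arrays, 72.4 on the miR-483-3p array and 106.7 and 108.9 on the control arrays. Its miR-483-3p array was the lowest of the 5, and between the arms TGFBR3 differed by 0.51 (adjusted p = 0.749) and TGFB2 by 0.37 (adjusted p = 0.788). The list median was 0.058 for miR-483-5p and -0.055 for miR-483-3p against control, where all genes had -0.014 and -0.0050.

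Of 20 further actin and focal adhesion genes, 16 were tested and 0 passed limma's test in any comparison. This list too was chosen with earlier results of these data known, so its counts are a description only. At an unadjusted p under 0.05, 3 genes were higher and 0 lower for miR-483-5p, where 5.3% of all genes were higher and 5.41% lower. For miR-483-3p, 1 was higher and 0 lower, where 2.51% and 4.05% of all genes were. SMTN, smoothelin, of contractile smooth muscle, had 202.2 and 208.5 on the miR-483-5p arrays, 156.3 on the miR-483-3p array and 114.2 and 130.1 on the control arrays. The miR-483-5p difference was 0.62 (SE 0.14, adjusted p = 0.332), and 1.53 and -0.020 in its other probe sets. SMTN, DES and ACTG2 also belong to the smooth muscle markers summed above. LIMA1, an actin-binding LIM protein, had 1559.4 and 1357.0 on the miR-483-5p arrays, 1028.9 on the miR-483-3p array and 1010.1 and 1065.9 on the control arrays, at differences of 0.48 (SE 0.15, adjusted p = 0.381) from the control and 0.49 (adjusted p = 0.693) from miR-483-3p. PALLD, palladin, of stress fibres, had 789.1 and 757.5 on the miR-483-5p arrays, 694.8 on the miR-483-3p array and 557.8 and 594.9 on the control arrays, a difference of 0.41 (adjusted p = 0.408) for miR-483-5p. DES, desmin, the muscle intermediate filament, had 43.9 and 24.8 on the miR-483-5p arrays, 46.9 on the miR-483-3p array and 20.2 and 21.3 on the control arrays. Its miR-483-3p difference was 0.58 (SE 0.22, adjusted p = 0.720), with both control signals under the filter. ACTG2, the smooth muscle gamma actin, had 99.8 and 102.3 on the miR-483-5p arrays, 72.4 on the miR-483-3p array and 122.9 and 81.2 on the control arrays. The miR-483-3p array was the lowest and the 2 controls lay farther apart, by 0.45, than its difference of -0.34 (adjusted p = 0.887). SMTN differed by 0.29 (adjusted p = 0.883) for miR-483-3p, and between the arms SMTN and ACTG2 differed by 0.33 (adjusted p = 0.792) and 0.35 (adjusted p = 0.834). The list medians were 0.0081 and 0.076 against control for miR-483-5p and miR-483-3p, where all genes had -0.014 and -0.0050.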

How the data were processed

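RNA from transfected MHH-ES-1 cells was hybridised to 5 HG-U133 Plus 2 arrays. The authors deposited 1 linear intensity for each of 54675 probe sets and array. GCOS and Partek appear in the submitters' processing notes, and no signal algorithm is given there. In the deposited intensity columns the mean without the outer 2% at each end is 150. Distance from background is unknown, since detection calls were not used here.

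Leaving out 62 control probe sets, 41091 probe sets carry 1 gene symbol in the platform annotation, 1801 several and 11721 none. Symbols were updated through RefSeq identifiers (41037 matched), and 3 probe sets that FOXO3 shares with another gene were not used. The brightest probe set stood for each gene, and 14591 genes passed the 40th percentile. A limma 3.58.1 fit (R 4.3.3) on log2(signal + 32) gave each group a mean over the 5 arrays, with 2 residual and 4.96 prior degrees of freedom. Tests were two-sided with Benjamini-Hochberg adjustment over all genes, and the fit was tested on simulated data. There it recovered 57% of 2-fold and 98.25% of 4-fold changes for miR-483-5p against control. For miR-483-3p against control it recovered 17.3% and 94.35%, so most 2-fold changes would be missed.

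Members, classes and lists were chosen with earlier results of these data known. Array signals are given for the tested members of each class with the largest difference from control (5 secreted, 5 cytoskeletal, 3 of each other class), and for list genes with the 3 lowest p-values of a comparison. Ranges of other members, PDGFRB and the single Ewing sarcoma markers were added after values were seen. Alternatives changed the normalization, filter, pseudocount, probe set rule or variance prior, blocked on repeats, or left out 1 array. Figures were drawn with matplotlib 3.10.9.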

Additional observations from a re-analysis of the deposited data

How the results depend on the processing

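No member was called by limma in any comparison under the 13 alternatives, and the lowest adjusted p of a member ran from 0.149 to 0.660 for miR-483-5p against control, from 0.285 to 0.696 for miR-483-3p against control and from 0.358 to 0.738 between the arms. Over all genes, median centring gave 37, 2 and 7 calls in these comparisons, a pseudocount of 100 gave 33 and 1 in the first 2, a prior that follows intensity 39 and 1, and the 60th percentile filter 1 in the first. Class medians are fragile: of 234 values under alternatives, 75 moved by more than the spread of that median between repeats (0.0072 to 0.057), and 13 by more than the usual spread of single genes (0.086 to 0.128). Both spreads were tried, and the narrower one, of the median itself, decides which values are listed here. The cause of these shifts was not tested.

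For miR-483-5p against control, the all-member median was 0.041 after median centring, -0.00571 with averaged probe sets and -0.00370 to 0.046 leaving out 1 array. The secreted median was 0.062 after median centring, 0.039 after quantile normalization, -0.11 with the 60th percentile filter, 0.075 with a pseudocount of 1, 0.00185 with a pseudocount of 100, -0.00628 with averaged probe sets and -0.023 to 0.052 leaving out 1 array. The cytoskeletal median was -0.11 to 0.054 leaving out 1 array. The transcription factor median was 0.14 after median centring and 0.10 to 0.15 leaving out 1 array. The cell surface median was 0.069 after median centring, 0.00734 after quantile normalization, -0.012 with averaged probe sets and 0.020 to 0.15 leaving out 1 array. The other intracellular median was -0.019 with averaged probe sets and -0.18 to -0.079 leaving out 1 array.

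For miR-483-3p against control, the all-member median was -0.043 after median centring, -0.095 with the 60th percentile filter, -0.068 with a pseudocount of 100, -0.065 with averaged probe sets, -0.10 with the replicate block and -0.14 to -0.079 leaving out 1 array. The secreted median was -0.044 after median centring, -0.096 with a pseudocount of 1, -0.063 with a pseudocount of 100, -0.042 with averaged probe sets and -0.17 to -0.081 leaving out 1 array. The cytoskeletal median was -0.071 with the 60th percentile filter, -0.10 with averaged probe sets and -0.14 to 0.018 leaving out 1 array. The transcription factor median was -0.050 after median centring, -0.24 with averaged probe sets and -0.16 to -0.084 leaving out 1 array. The cell surface median was -0.22 after median centring, -0.32 with a pseudocount of 1, -0.18 with a pseudocount of 100, -0.00792 with averaged probe sets and -0.25 to -0.17 leaving out 1 array. The other intracellular median was -0.065 with the replicate block.

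Between the arms, the all-member median was 0.11 after quantile normalization, 0.13 with the 60th percentile filter, 0.047 with averaged probe sets, 0.14 with the replicate block and 0.076 to 0.16 leaving out 1 array. The secreted median was 0.16 after quantile normalization, 0.12 with a pseudocount of 100, 0.036 with averaged probe sets and 0.10 to 0.14 leaving out 1 array. The cytoskeletal median was 0.12 with the 60th percentile filter and -0.024 to 0.15 leaving out 1 array. The transcription factor median was 0.17 with averaged probe sets, 0.18 with the replicate block and 0.078 to 0.20 leaving out 1 array. The cell surface median was 0.38 with a pseudocount of 1, 0.23 with a pseudocount of 100, 0.00194 with averaged probe sets, 0.43 with the replicate block and 0.26 to 0.35 leaving out 1 array. The other intracellular median was -0.12 to 0.090 leaving out 1 array.

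Averaging probe sets turned LUM to -0.051 and -0.097, VCL to -0.086 and -0.12, and PHLDA1 to 0.18 and 0.012 for miR-483-5p and miR-483-3p against control, and S100A6 to -0.080 and SMAD3 to -0.032 for miR-483-3p. TGFBR2 for miR-483-5p was 0.017 after median centring and 0.00215 after quantile normalization, and TNC for miR-483-3p was -0.00402 after quantile normalization and -0.00570 with a pseudocount of 100. Leaving out 1 array gave, for miR-483-5p, TAGLN -0.000326 to 0.12, FOXO1 -0.26 to 0.10, TGFBR2 -0.24 to 0.20 and ANXA1 -0.17 to 0.015, and for miR-483-3p, TNC -0.31 to 0.31, TPM1 -0.17 to 0.21 and ANXA1 -0.13 to 0.049. The replicate block gave TNC -0.25, S100A6 -0.035 and ANXA1 0.035 for miR-483-3p and called 0 genes in any comparison. First arrays and repeats deviated together at r = 0.167 across genes between miR-483-5p and control, which is 1 value from 2 pairs, so the arrays are treated as sharing only a number.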
